A study of Solanum lycopersicum with 15 samples.

Results

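Hairy roots of tomato carrying edits in *SlEXO1* were compared with wild-type hairy roots, gene by gene, in 9 of the 15 libraries of the series: 3 of the line *slexo1-hr6*, 3 of the line *slexo1-hr7* and 3 of the wild type. The libraries were chosen by their genotype labels, and no measured value entered the choice. All roots were of the cultivar M82 and came from cotyledons infected with *Rhizobium rhizogenes*, the bacterium whose transferred genes make roots that grow in culture. Mutant roots had been selected on kanamycin after transformation with a CRISPR/Cas9 vector, whereas the wild-type roots received the bacterium without a vector, so editing and the presence of a vector cannot be told apart in this contrast. Each mutant line is 1 subcloned root, and the tips of 6 to 7 roots, 3 cm long, grown on medium with 3% sucrose, were pooled for each library. The other 6 libraries carry edits in *SlSCZ* (lines *slscz-hr5* and *slscz-hr12*). They shared the estimate of the spread, and their levels are given only where they bear on the wild type.

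The exodermis is the outermost cortical layer of the tomato root, and it seals itself with a cap of lignin on its outer face, the polar lignin cap. Lignin is polymerized in the wall from phenylpropanoid units, and suberin, a polyester, is laid down beside it. *SlEXO1* encodes a C2H2 zinc finger transcription factor, and the profiling of its hairy root mutants was meant to find the genes whose transcript abundance depends on it.

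The edits differ between the lines, and the sequences at the guide sites are shown because they are what distinguishes the groups compared. Of 3 guides directed at exon 1 of *SlEXO1* (Solyc09g011120, chromosome 9 by its identifier), guide 1 left the site unedited in both lines, whereas the sites of guides 2 and 3 were altered. Capitals in the guides mark the last 3 bases, which lie beyond the usual cut of Cas9. Capitals in the alleles mark the longest run of 8 or more bases shared with the guide at that site.
guide 2: gagcacttggagggtgtATA
*slexo1-hr6*, site of guide 2: CACTTGGAGGGTGTtatatggccaccaag
*slexo1-hr7*, site of guide 2: GGAGGGTGTttggaaccccagag
guide 3: tgcctctggggttccaaTTA
*slexo1-hr6*, site of guide 3: TCTGGGGTTCCAAattagggtttcttc
*slexo1-hr7*, site of guide 3: tggtggccatatttagggtttctt
In *slexo1-hr6* the shared runs of 14 and 13 bases end where each guide is cut, and 1 bp is inserted at each site. In *slexo1-hr7* the run shared with guide 2 is 9 bases long and is followed by 14 bases that match the reverse complement of guide 3. No run of 8 or more bases of guide 3 itself is left at its site. Both lines are listed with an early stop codon.

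The *SlEXO1* transcript was measured first. Its counts were 15, 21 and 10 in the wild-type libraries, 22, 18 and 24 in *slexo1-hr6* and 25, 20 and 27 in *slexo1-hr7*, or 2.31 to 4.61, 3.96 to 4.46 and 3.19 to 6.15 counts per 1000000 counts of a library (CPM). The groups overlapped, and the transcript was not called (log2 fold change 0.57, standard error 0.38, adjusted p = 0.384, limma-voom). Reads were taken from the 3′ ends of transcripts, and the edits lie in exon 1, so this transcript does not check the genotype.

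Library totals were between 3348822 and 8942819 counts in wild type and between 3883717 and 6020912 in *slexo1*. The 100 most abundant genes took 26.2% to 27.0% of the counts in wild type and 23.7% to 25.1% in *slexo1*, and the scaling factors (TMM) were 0.94 to 0.98 and 1.03 to 1.07. A total of 16189 genes had enough counts to be tested. A gene was called when its adjusted p was at most 0.05 and it changed by at least 1.3-fold (limma-voom, Benjamini-Hochberg adjustment over all genes tested). Of the tested genes, 8.84% were called, 3.89% higher in *slexo1* (630 genes) and 4.95% lower (801 genes). The libraries of a line are 3 biological replicates by the study's methods. In the tests of single lines, the p-values measure the spread between root pools within a line or within wild type. With the lines together, as in the calls just given, the spread also holds differences between the lines of a genotype.

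The wild-type libraries stand apart in a stretch of chromosome 1, and this touches results given below. Identifiers of tomato genes follow their order on the chromosome. Over the 325 tested genes from Solyc01g005000 to Solyc01g017440, the median log2 fold change in *slexo1* was 0.38, or 1.31-fold, and 287 genes (88.3%) had a positive value. Over all other tested genes the median was 0.02 and 53.0% were positive. The level of these genes in a library, as the median deviation from the gene means beside that of all other genes, was -0.31, -0.28 and -0.30 (log2 CPM) in the wild-type libraries. It was 0.02, 0.12 and 0.06 in *slexo1-hr6*, 0.08, 0.08 and 0.09 in *slexo1-hr7* and between 0.05 and 0.07 in the 6 *slscz* libraries. All 12 mutant libraries thus lay close together, and the 3 wild-type libraries were lower by a similar amount. The stretch was chosen after its values were seen, and no test was made of it.

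In windows of 50 tested genes, the 6 windows that open chromosome 1 had median log2 fold changes of 0.34 to 0.52 in *slexo1-hr6* and 0.34 to 0.45 in *slexo1-hr7*. The 271 windows of chromosomes 2 to 12 ranged from -0.17 to 0.20 and from -0.22 to 0.20. The seventh window, which reaches to Solyc01g049960, had medians of 0.20 and 0.27, and both lines lay within the range of the other chromosomes in windows 8 to 20. The comparisons of both lines share the same 3 wild-type libraries.

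**Figure D1:**
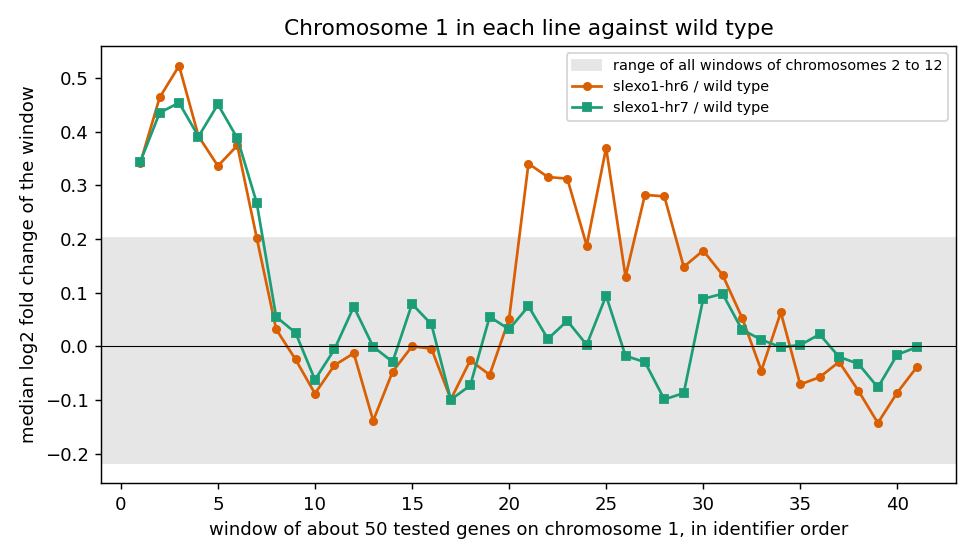
Median log2 fold change of *slexo1-hr6* (circles) and *slexo1-hr7* (squares) against the shared wild-type libraries in 41 consecutive windows of about 50 tested genes along chromosome 1, in identifier order; the grey band is the range of both lines over the 271 windows of chromosomes 2 to 12. Both lines lie above the band in windows 1 to 6, and *slexo1-hr6* alone does so in most of windows 21 to 29.

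The stretch held 83 of the genes called higher (25.5% of its genes, against 3.45% of all others) and 3 called lower (0.923% against 5.03%). It thus gave 13.2% of all genes called higher. In 124 of its genes (38.2%) all 6 *slexo1* libraries lay above all 3 wild-type libraries, against 7.18% of all tested genes. Outside it, 547 genes were higher and 798 lower, so that 40.7% of the calls were higher instead of 44.0%. When the median difference of 0.36 was taken off its genes before the test, an alternative added after the data were seen, 9 of them were called higher and 15 lower. Leaving out 1 library at a time kept the median difference between the stretch and the other genes at 0.35 to 0.39. DNA was not measured, and the cause was not tested.

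A second stretch of chromosome 1 distinguished the lines. From Solyc01g094140 to Solyc01g100990 (449 tested genes), the 9 windows 21 to 29 were lower in *slexo1-hr7* than in *slexo1-hr6* by a median of 0.23 to 0.29 (log2) in every window. All other 303 windows lay between -0.14 and 0.14 in this direct difference of the lines, which uses no wild-type library. The level of these genes beside all others was 0.23, 0.15 and 0.22 in the libraries of *slexo1-hr6*. It lay between -0.09 and -0.05 in *slexo1-hr7*, between -0.05 and -0.01 in wild type and between -0.06 and -0.03 in *slscz*. Here the 3 libraries of *slexo1-hr6* stand above the other 12. The stretch held 25 genes called higher in *slexo1* (5.57%, against 3.89% of all tested genes) and 15 called lower (3.34%, against 4.95%).

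**Figure D2:**
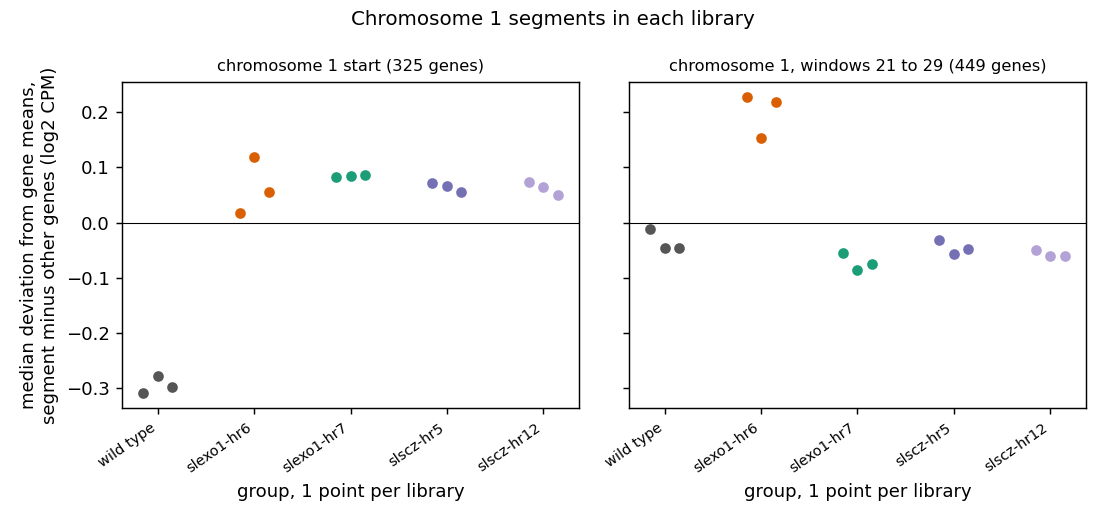
Median deviation of the genes of a stretch from their own means over all 15 libraries, minus that of the remaining tested genes (log2 CPM), 1 point per library and 3 per group, for the start of chromosome 1 (left) and for its windows 21 to 29 (right). At left the wild-type libraries lie between -0.31 and -0.28 and all others between 0.02 and 0.12; at right the *slexo1-hr6* libraries lie between 0.15 and 0.23 and all others below 0.

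Most changes were small. The median size of a call was 1.67-fold among genes called higher and 1.57-fold among those called lower. A change of at least 2-fold was reached by 174 genes called higher and 202 called lower, 26.3% of all calls. At least 4-fold was reached by 35 and 47 genes, and at least 8-fold by 11 and 15. The median level in wild type was 45.3 CPM for genes called lower, 15.6 CPM for those called higher and 14.5 CPM for all tested genes. The wild-type level enters the fold change, so part of this gap follows from the direction of the call. In *slexo1* the medians were 28.76 CPM for genes called lower and 26.01 CPM for those called higher. By mean level over all 15 libraries they were 5.14 and 4.29 (log2 CPM), against 3.89 for all tested genes. Reads come from transcript ends, so these levels were not divided by length.

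**Figure D3:**
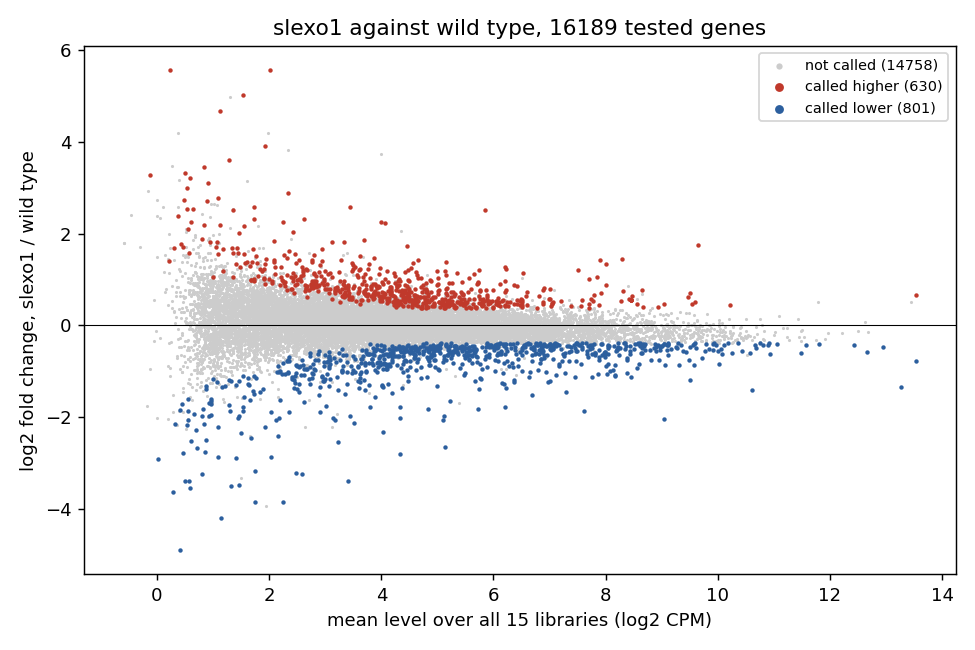
Log2 fold change of *slexo1* against wild type (vertical axis) by mean level over all 15 libraries (log2 CPM, horizontal axis), 1 point per tested gene, with 630 genes called higher in red and 801 called lower in blue. The fold changes needed for a call narrow towards high levels, and the abundant genes that were called lie mostly below 0.

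The share of genes called rose with their level. With the tested genes in 5 equal groups by mean level, 4.54% of the lowest (0.66 to 4.29 CPM), 6.33%, 9.02%, 10.8% and 13.5% of the highest (53.1 to 11840 CPM) were called. The median standard error fell over the same groups from 0.39 to 0.10 on the log2 scale, and the median size of a call from 1.77 to 0.53. Of the 82 calls of at least 4-fold, 57 lay in the lowest group and 2 in the highest. In the 4 lower groups 49.3% to 54.1% of the calls were higher in *slexo1*. In the highest group 117 genes were called higher (3.61%) and 321 lower (9.91%), so that 73.3% of its calls were lower. This balance depends on the scaling. With library size alone in place of TMM, the median log2 fold change of all genes moved from 0.03 to 0.15, 72.8% of all calls were higher, and 40.7% of the calls in the highest group were lower.

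**Figure D4:**
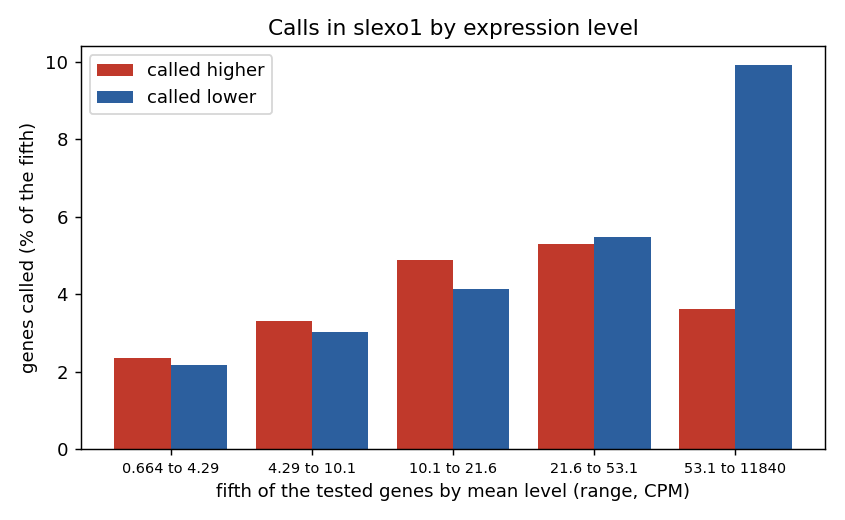
Share of tested genes called higher (red) or lower (blue) in *slexo1*, in percent of each of 5 equal groups of the tested genes by mean level (ranges in CPM under the bars). Both shares are close to each other in the 4 lower groups, and in the highest group 3.61% are higher and 9.91% lower under TMM scaling.

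With the lines together, leaving out a wild-type library moved the count of calls more than leaving out a mutant library. Without wild-type library 2, 3 or 4 (the numbers of the count table), 943, 738 and 895 genes were called, and 31.4%, 25.9% and 32.4% of them were higher. Without 1 of the 6 mutant libraries, 1084 to 1492 genes were called. In *slexo1-hr6* alone 778 genes were called without its library 2 and 791 without wild-type library 3, of 1447. In *slexo1-hr7* alone 310 and 502 were called without its libraries 3 and 2, and 421 and 496 without wild-type libraries 3 and 4, of 777.

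The genes with the largest changes were chosen in 3 equal classes of the tested genes by mean level, among genes called in the same direction in both lines with no overlap between mutant and wild-type libraries. None of them is annotated in the tables used here, so each is given by its identifier. The low, middle and high class met at 7.79 and 28.0 CPM. Since the rule required a change in both lines, their agreement is not a result.

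In the low class, Solyc08g150141 had 0 counts in all wild-type libraries. It had 39, 20 and 34 counts in *slexo1-hr6* and 16, 22 and 25 in *slexo1-hr7*, with a mean of 4.86 CPM that was at least 7.39-fold higher than the level of 3 counts per wild-type library. Its adjusted p was 6.44e-05 (limma-voom). Solyc02g071950 had 1, 3 and 0 counts in wild type and 109, 79 and 65, and 49, 95 and 63, in the lines. Pooled over libraries it was 57.2-fold higher, with a 95% counting interval of 22.2 to 211 (Clopper-Pearson), and adjusted p was 0.000192 (limma-voom). Solyc01g103320 (0 counts in wild type, 7 to 17 and 17 to 39 in the lines) was at least 5.32-fold higher, but its adjusted p of 0.00851 rose to 0.0569, 0.113 and 0.0710 (limma-voom) without wild-type library 2, 3 or 4. Solyc03g063390 had 1 count in wild type in all and 12 to 25 in every mutant library. These counting intervals and floors cover counting error only.

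The strongest falls of this class were those of Solyc12g160080, Solyc05g014000, Solyc12g160670 and Solyc01g104710. Solyc12g160080 had 12, 31 and 18 counts in wild type and 3 counts in 1 library of *slexo1-hr6*, with 0 in the other 5 mutant libraries. Pooled, wild type was 40.9-fold higher (95% counting interval 13.3 to 204, Clopper-Pearson). Solyc12g160670 was at 23.0, 17.2 and 14.3 CPM in wild type, between 0.72 and 1.82 CPM in *slexo1-hr6* and between 0.25 and 2.23 CPM in *slexo1-hr7* (log2 fold change -3.86, standard error 0.82, adjusted p = 0.00449, limma-voom). Solyc01g104710 fell from 6.23 to 10.1 CPM in wild type to at most 0.25 CPM in *slexo1-hr6* and 0.64 to 1.31 CPM in *slexo1-hr7*.

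In the whole table of 34688 genes, 23 had at most 3 counts in each wild-type library and more than 3 in each *slexo1* library, and 11 had the reverse. These genes were picked by their counts, and only 10 and 3 of them had enough counts for the test. One of them without a test was Solyc02g084031, with 6, 12 and 11 counts in wild type and 1 count in 1 of the 6 mutant libraries.

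In the middle class, the largest rises were those of Solyc07g009100, Solyc11g018530, Solyc08g006410 and Solyc02g030220. Solyc11g018530 had 6.14, 7.04 and 7.16 CPM in wild type, 29.2 to 35.1 in *slexo1-hr6* and 35.2, 30.5 and 38.4 in *slexo1-hr7*. The libraries of a group lay close together, and the rise was 2.25 on the log2 scale, with a standard error of 0.18 (adjusted p = 3.47e-07, limma-voom). Solyc08g006410 had at most 9.23 CPM in the wild-type libraries. It was at 63.9 and 57.7 CPM in 2 libraries of *slexo1-hr6*, and library 4 of that line, at 36.8, lay with those of *slexo1-hr7* at 36.6 to 37.9 CPM.

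Solyc07g009100 (4.61, 9.31 and 5.08 CPM in wild type, 31.6 to 57.8 CPM in the mutant libraries) lies in a row of 4 tested neighbours that were all called higher. The row runs from Solyc07g009060, with log2 fold changes between 0.80 and 2.88 and a median of 2.30. A little further on, Solyc07g009230 had the largest rise of the high class, from 46.7, 87.1 and 44.8 CPM in wild type to 249, 454 and 137 CPM in *slexo1-hr6* and 644, 504 and 312 CPM in *slexo1-hr7*. On the log2 scale it rose by 2.51, with a standard error of 0.40 (adjusted p = 0.000417, limma-voom), and its mutant libraries spread over a wider range than those of Solyc11g018530. Neighbours with similar sequences can share reads in pseudo-alignment, so single values in such a row are uncertain.

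The largest falls of the middle class were those of Solyc05g024260, Solyc06g007960, Solyc04g015610 and Solyc09g072700. Solyc05g024260 had 39.3, 23.3 and 37.2 CPM in wild type, 1.98, 2.97 and 2.31 in *slexo1-hr6* and 3.69, 1.91 and 5.91 in *slexo1-hr7*, and the log2 value was -3.39 with a standard error of 0.40 (adjusted p = 2.54e-05, limma-voom). The lowest wild-type library was still several-fold above the highest mutant library. For Solyc06g007960 the ranges were 24.8 to 38.1 CPM in wild type and 2.31 to 7.88 CPM in the mutant libraries, and for Solyc04g015610 18.0 to 33.5 and 1.80 to 9.19 CPM.

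**Figure D5:**
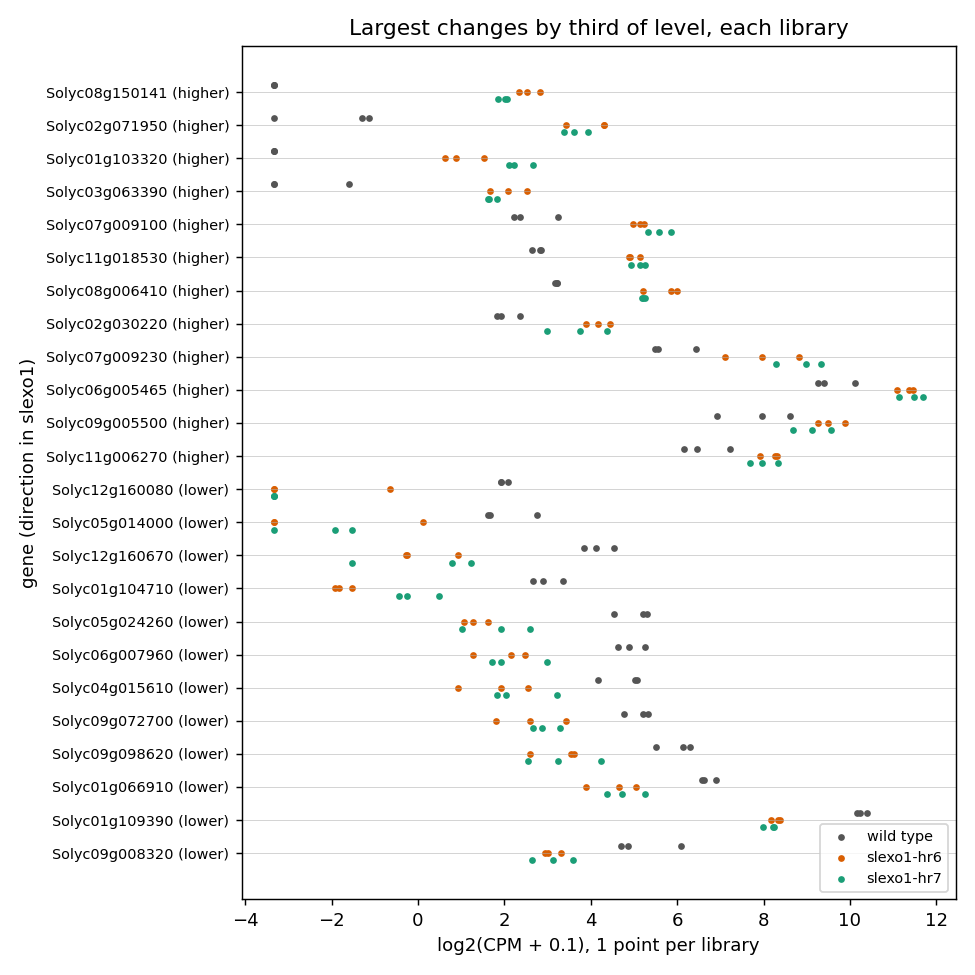
Level of the 12 genes with the largest rises and the 12 with the largest falls, 4 per level class in each direction, as log2(CPM + 0.1) in each library (grey, wild type; orange, *slexo1-hr6*; green, *slexo1-hr7*). The choice required that the 6 mutant libraries lie on 1 side of the 3 wild-type libraries; within that, the lines overlap in most genes and the wild-type points of Solyc09g005500 spread from 121 to 390 CPM.

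In the high class, Solyc01g109390 had the smallest adjusted p of the named genes. It was at 1351, 1140 and 1199 CPM in wild type, 288, 324 and 331 CPM in *slexo1-hr6* and 297, 253 and 304 CPM in *slexo1-hr7*, which gave a log2 fold change of -2.03 with a standard error of 0.14 (adjusted p = 5.44e-08, limma-voom). Solyc09g098620 fell from 78.9, 45.6 and 69.7 CPM to 5.94 to 12.1 CPM in *slexo1-hr6* and 5.74 to 18.7 CPM in *slexo1-hr7* (log2 fold change -2.64, standard error 0.25). Solyc01g066910 and Solyc09g008320 fell by 2.06 and 1.98 on the log2 scale.

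Among the rises of this class, Solyc06g005465 went from 608, 1105 and 680 CPM to 2195 to 2813 CPM in *slexo1-hr6* and 2248 to 3310 CPM in *slexo1-hr7*. Solyc09g005500 was at 121, 390 and 249 CPM in wild type and 412 to 939 CPM in the mutant libraries, so that the highest wild-type library lay just under the lowest mutant one. Solyc11g006270 rose by 1.42 (log2).

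The 3 most abundant genes called in each direction included Solyc06g005465, described above, and the other 5 changed by less. Solyc09g010800 held 20040, 21230 and 20450 CPM in wild type and 8097, 9393 and 7539 CPM in *slexo1-hr6* and 9376, 6594 and 8084 CPM in *slexo1-hr7*. It fell by 1.35 on the log2 scale, with a standard error of 0.14 (adjusted p = 3.20e-06, limma-voom). Solyc01g111170 fell from 14940 to 18660 CPM to 8322 to 10680 CPM. Solyc07g017570 (11350 to 15350 CPM against 7528 to 11220 CPM) fell by 0.48 on the log2 scale, and its adjusted p rose from 0.00919 to 0.0870 (limma-voom) without wild-type library 3. Of those called higher, Solyc10g048060 stood at 7449, 8775 and 10840 CPM in wild type and 11550 to 16540 CPM in the mutant libraries (log2 fold change 0.67, standard error 0.15). Solyc07g043420 stood at 828 to 961 CPM and 1047 to 1431 CPM. The calls of both were lost without wild-type library 2, with adjusted p of 0.0574 and 0.0661 (limma-voom).

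Genes that lie next to each other were called together in 15 rows of at least 3, 10 of them higher and 5 lower, with 51 genes in all. The longest was a row of 5 from Solyc08g078870 to Solyc08g078930, all lower, with log2 fold changes between -2.20 and -1.04. Of the 10 rows of genes called higher, 6 lay in the stretch at the start of chromosome 1, where the wild-type libraries were low. By chromosome, 7.11% of the tested genes of chromosome 1 were called higher, against 2.47% to 4.45% for chromosomes 2 to 12. Among the 204 tested identifiers that are on no chromosome (numbered 00), 8.82% were called higher and 5.88% lower, with a median log2 fold change of 0.18.

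The lines were then set side by side. Against the same 3 wild-type libraries, 1447 genes were called in *slexo1-hr6* (8.94% of the tested genes, 684 higher and 763 lower) and 777 in *slexo1-hr7* (4.80%, 308 higher and 469 lower). Of the 1431 genes called with the lines together, 566 were called in the same direction in each line, 509 in *slexo1-hr6* only, 130 in *slexo1-hr7* only and 226 in neither, and 0 in opposite directions. The fit with the lines together counts a difference between them as spread, which works against a call. Agreement of the lines among these 1431 genes is therefore partly set by how they were chosen. Their median size was 0.72 in *slexo1-hr6* and 0.66 in *slexo1-hr7* (log2). A larger change in *slexo1-hr6* was seen in 66.0% of them, against 55.8% of all tested genes. In 1240 of them (86.7%) the 6 mutant libraries did not overlap with wild type. Among all tested genes, 7.18% lay wholly above and 8.99% wholly below the wild-type libraries.

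A call in 1 line only is not a difference between the lines. The direct test of *slexo1-hr7* against *slexo1-hr6*, which uses no wild-type library, called 56 genes (0.346% of the tested genes, 32 higher in *slexo1-hr7* and 24 lower). Among the 1431 genes, 9 were also called in this direct test (0.629%), 2 of those called higher and 7 of those called lower. That share was not below the 0.346% of all tested genes. The choice of these genes bears on it, since a difference between the lines works against a call with the lines together. Of the 509 genes called in *slexo1-hr6* only, 4 differed between the lines (0.786%). Of the 130 called in *slexo1-hr7* only, 3 did (2.31%), again beside 0.346% of all tested genes. The median difference between the lines over the 1431 genes was 0.15 in size, close to that of all tested genes (0.15). The number of calls in this direct test fell to 20 without library 2 of *slexo1-hr6*, to 30 and 29 without its libraries 3 and 4, to 29 and 23 without libraries 2 and 3 of *slexo1-hr7* and to 37 without its library 4.

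Some of the largest differences between the lines lay behind calls made with the lines together. Solyc09g064925 had 24, 90 and 30 counts in wild type and 46, 52 and 54 in *slexo1-hr7*, but 0, 0 and 1 in *slexo1-hr6*. The lines differed by 6.05 on the log2 scale (adjusted p = 0.000252, limma-voom), and *slexo1-hr7* was at wild-type level (log2 fold change 0.08). Solyc09g064750, close to it in identifier order, showed the reverse. It had 52, 43 and 56 counts in *slexo1-hr6* and 27, 84 and 51 in wild type, but 0, 3 and 1 in *slexo1-hr7*, a difference of -5.16 (adjusted p = 0.000104, limma-voom). With the lines together, limma-voom called both genes lower, with log2 fold changes of -2.87 and -2.67 (adjusted p = 0.0308 and 0.0203). Neither was called by edgeR's quasi-likelihood test (adjusted p = 0.476 and 0.350) or by DESeq2 (adjusted p = 0.761 and 0.753), and the mutant libraries of 1 line overlapped with wild type in each. The limma-voom calls were lost when 1 library was left out, for Solyc09g064925 without wild-type library 2 or 3 or any of *slexo1-hr6* (adjusted p = 0.0515 to 0.136) and for Solyc09g064750 without wild-type library 3 or 4 or any of *slexo1-hr7* (adjusted p = 0.0536 to 0.0725).

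Solyc09g090990 had 70.1 to 81.7 CPM in wild type, 3.63 to 21.2 CPM in *slexo1-hr6* and 44.8 to 47.1 CPM in *slexo1-hr7*. It passed the test in *slexo1-hr6*, and in *slexo1-hr7* adjusted p was 0.111 (limma-voom), although no library of that line reached the wild-type range. Solyc09g091210 passed in each line, from 304 to 338 CPM in wild type to 177 to 188 CPM in *slexo1-hr6* and 109 to 144 CPM in *slexo1-hr7*. Solyc10g012005 and Solyc06g005070 differed between the lines by 3.50 and -0.76 (log2, *slexo1-hr7* minus *slexo1-hr6*). With the lines together, Solyc10g012005 was not called by edgeR's quasi-likelihood test (adjusted p = 0.0566) or by DESeq2 (adjusted p = 0.400). Nor was Solyc09g090990 called by DESeq2 (adjusted p = 0.145). The limma-voom call of Solyc06g005070 was lost without any 1 of the wild-type libraries (adjusted p = 0.0539 to 0.0745).

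Genes tied to the endodermis, the inner barrier layer, were present in every group, but several of them are not specific to it. The study's reporters place *SlSGN3* and *SlCASP3* also in cortex and exodermis, and *SlCASP1* to some extent. The study reports *SlSCZ* in the meristem, cortex and exodermis. In wild type *SlMYB36*, whose Arabidopsis counterpart regulates the Casparian strip, had 13.0 to 16.0 CPM, and *SlSGN3*, named for the Arabidopsis receptor kinase that guides sealing of the strip, had 12.6 to 16.0 CPM. Of 10 identifiers of endodermal regulators, 9 had values and 8 were tested. Of these, 0 were called higher and 2 lower, against 3.89% and 4.95% of all genes, and their median log2 fold change was -0.16. *SlCASP1* (Solyc06g074230), a scaffold protein of the Casparian strip, had 27.9, 33.9 and 23.3 CPM in wild type, 18.7, 16.1 and 13.2 in *slexo1-hr6* and 13.1, 11.6 and 16.2 in *slexo1-hr7*. It fell by 0.98 on the log2 scale, with a standard error of 0.20 (adjusted p = 0.00324, limma-voom), and passed in each line. Fewer cells of a type and less RNA per cell cannot be told apart in such whole root tips. *SlCASP3* (Solyc09g010200) fell from 46.0 to 61.0 CPM to 32.4 to 42.5 and 23.9 to 29.8 CPM (log2 fold change -0.74, standard error 0.18, adjusted p = 0.0120, limma-voom). By line, *SlCASP3* passed in *slexo1-hr7* but not in *slexo1-hr6* (adjusted p = 0.00642 and 0.114, limma-voom). With the lines together but without wild-type library 3, adjusted p was 0.0556 for *SlCASP1* and 0.0993 for *SlCASP3* (limma-voom). The calls of both were lost in that fit.

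*SlMYB36*, *SlSHR*, *SlSCZ* and *SlMYB36-b* had log2 fold changes of -0.16, -0.15, -0.14 and -0.12 and were not called. *SlCASP2* was at -0.65 (adjusted p = 0.218, limma-voom), with -0.23 in *slexo1-hr6* and -1.05 in *slexo1-hr7*, and was not called either. The only positive value of the 8 tested was that of *SlSGN3*, at 0.11. Summed over the 9 identifiers, the level was 125 to 148 CPM in wild type and 80.7 to 113 CPM in *slexo1*. This difference was nearly that of *SlCASP1* and *SlCASP3*, since the sum of the other 7 was 50.6 to 53.5 CPM in wild type and 45.1 to 53.4 CPM in *slexo1*, which overlapped.

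Transcription factors enriched in the exodermis had been chosen by the study for a mutant screen, and 15 of the 19 with values were tested. Of these, 2 were called higher and 3 lower, against 3.89% and 4.95% of all tested genes, and their median log2 fold change was -0.04. Their summed level was 269 to 294 CPM in wild type and 286 to 316 CPM in *slexo1*. The largest fall was that of *SlNUC* (Solyc09g074780), at 8.29, 4.65 and 6.46 CPM in wild type, 1.08, 1.49 and 1.49 in *slexo1-hr6* and 0.25, 0.80 and 1.31 in *slexo1-hr7*. No mutant library came near the lowest wild-type one, and the fall, by 2.45 on the log2 scale, had a standard error of 0.37 (adjusted p = 0.000240, limma-voom). *SlMYB54* (Solyc10g081320), of the MYB family, fell from 7.04 to 11.1 CPM to 2.97 to 3.96 and 2.95 to 5.58 CPM (log2 fold change -1.07). *SlWRK31* fell by 0.41 on the log2 scale, and its call was lost without any of the 3 wild-type libraries, library 2 of *slexo1-hr6* or library 3 of *slexo1-hr7* (adjusted p = 0.0533 to 0.104, limma-voom).

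Both factors called higher, *SlSHN1* (Solyc01g005630, of the AP2/ERF family) and *SlNAC041* (Solyc01g009860), lie in the stretch at the start of chromosome 1. *SlSHN1* had 2.76, 3.46 and 3.23 CPM in wild type, 9.72, 9.66 and 8.59 in *slexo1-hr6* and 4.68, 7.34 and 6.73 in *slexo1-hr7*. It rose by 1.21 on the log2 scale, with a standard error of 0.29 (adjusted p = 0.00960, limma-voom), beside 0.38 for the median gene of the stretch. By line, it passed in *slexo1-hr6* but not in *slexo1-hr7* (adjusted p = 0.00147 and 0.0512, limma-voom). *SlNAC041* had 94.9 to 104 CPM in wild type and 119 to 152 CPM in the mutant libraries, a log2 fold change of 0.44. With the median of the stretch taken off, their values were 0.85 (adjusted p = 0.0661) and 0.08 (adjusted p = 0.688, limma-voom), and neither was called. In the fit without wild-type library 3, where the median of the stretch was not taken off, adjusted p was 0.0785 for *SlSHN1* and 0.0851 for *SlNAC041* (limma-voom).

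The 5 genes of the lignin and suberin list, among them a fasciclin-like arabinogalactan gene, had been named by the study from these same libraries. Their direction is therefore not independent evidence. They were scarce, and of the 4 tested, 2 were called higher and 0 lower, against 3.89% and 4.95% of all tested genes, with a median log2 fold change of 1.95 beside 0.03 for all tested genes. *SlGPAT4* (Solyc01g094700), an acyltransferase of the suberin and cutin pathways, had 6, 8 and 8 counts in wild type, 72, 70 and 26 in *slexo1-hr6* and 26, 20 and 36 in *slexo1-hr7*. With the lines together it rose by 2.25 on the log2 scale, with a standard error of 0.63 (adjusted p = 0.0268, limma-voom). The values by line were 2.72 in *slexo1-hr6* and 1.78 in *slexo1-hr7* (adjusted p = 0.0101 and 0.134, limma-voom). It lies in the stretch of chromosome 1 that is raised in *slexo1-hr6*, whose median gene changed by 0.28 (log2) in that line. *4CL1* (Solyc07g008360), a 4-coumarate:CoA ligase of monolignol synthesis, had 4, 9 and 3 counts in wild type, 39, 33 and 26 in *slexo1-hr6* and 12, 15 and 11 in *slexo1-hr7* (log2 fold change 1.81, adjusted p = 0.0475, limma-voom). Its log2 fold change was 2.52 in *slexo1-hr6* and 1.14 in *slexo1-hr7*, and the difference of -1.38 between the lines had adjusted p = 0.0884 (limma-voom). The calls of *SlGPAT4* and *4CL1* were lost without any 1 of the wild-type libraries, with adjusted p of 0.0696 to 0.254 and 0.117 to 0.220 (limma-voom). That of *4CL1* was also lost without any library of *slexo1-hr6*, with adjusted p of 0.0513 to 0.0667 (limma-voom).

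The laccase genes named *SlLAC12*-like, whose enzymes oxidize monolignols, gave few counts. Solyc06g050530 had 2, 4 and 0 counts in wild type, 12, 16 and 7 in *slexo1-hr6* and 4, 6 and 9 in *slexo1-hr7* (pooled ratio 4.48, 95% counting interval 1.93 to 12.7, Clopper-Pearson; adjusted p = 0.0767, limma-voom). Solyc05g052370 had 0, 0 and 1 counts in wild type and 3 to 12 in every mutant library, too few for the test. The fasciclin-like arabinogalactan gene Solyc12g006110 had 20, 38 and 18 counts in wild type and 11 to 42 in the mutant libraries, which overlapped (log2 fold change 0.30, standard error 0.30).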

How the data were processed

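Hairy root tips of *slexo1-hr6*, *slexo1-hr7* and wild type were profiled by QuantSeq 3′ mRNA sequencing, 3 libraries each. Reads were trimmed with Trimmomatic and pseudo-aligned by the authors to ITAG 4.1 cDNA sequences with kallisto (0.46.2 in the submitters' processing notes, another version in the paper's methods). The authors deposited estimated counts per gene without normalization, which were rounded here to whole counts. Shared reads between similar genes are split by such estimates. Wild-type columns are numbered differently in table and labels and were used as a group, and 0 columns were of other samples.

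Genes were kept by edgeR's filterByExpr (4.0.16; minimum count 10, minimum total 15). limma-voom (3.58.1, R 4.3.3) with TMM factors was fitted to all 15 libraries, with 3 genotypes or 5 lines as groups. Calls needed at least a 1.3-fold change and, after Benjamini-Hochberg adjustment, p no higher than 0.05. CPM are scaled by TMM. The fits were tested on simulated data. The 325-gene and 449-gene stretches of chromosome 1 were chosen after their values were seen. Identifiers numbered 150000 and above (326 tested genes) are out of order and were left out of the windows. A 3-count floor per library was used for lower bounds.

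The members and lists were chosen with earlier results of these data known. Genes are named among the 4 largest changes per level class and direction, among the 3 most abundant calls per direction, where the lines differ most, and in the lists of the study. None of the identifiers matched the gene name table given (assembly SLM_r2.1). List members without a value are not analysed here. Other fits used DESeq2 1.42.0 (whose genes without an adjusted p were not counted) or the quasi-likelihood test of edgeR, other scaling, filters and thresholds, only the 9 libraries, quality weights, a replicate block, a random line effect, the average of both lines, and leaving out each library. Supplementary allele sequences were read from the study's table.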

Additional observations from a re-analysis of the deposited data

Results flagged for a closer look

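Of the 56 genes called in the direct test of *slexo1-hr7* against *slexo1-hr6* (limma-voom), 6 are named above. Their differences (log2, *slexo1-hr7* minus *slexo1-hr6*) were 6.05 for Solyc09g064925, 3.50 for Solyc10g012005, 2.15 for Solyc09g090990, -5.16 for Solyc09g064750, -0.76 for Solyc06g005070 and -0.55 for Solyc09g091210.

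In 3 of 48 named genes, 1 of the 6 *slexo1* libraries lay far from the others. The 48 genes were picked by rules, and these 3 had few counts in *slexo1*. No rate from chance can therefore be set beside this number, and its cause was not tested. Solyc12g160080 was at 0.54 CPM in library 2 of *slexo1-hr6* and 0 in the others. Solyc05g014000 was at 0.99 CPM in library 4 of *slexo1-hr6*, where the next was at 0.25 CPM. Solyc05g052370 was at 2.97 CPM in library 3 of *slexo1-hr6*, where the next was at 1.26 CPM.

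The *slscz* libraries, given above only by their levels in the chromosome 1 stretches, had a median log2 fold change of 0.38 against wild type over the 325 genes at the start of chromosome 1.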

How the results depend on the processing

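Calls in *slexo1* stayed within 1.5 times 1431 under the other tests, scalings and filters tried (1328 without a filter to 1898 with quality weights; 1438 with edgeR, 1512 with DESeq2), but fell to 204 at an absolute log2 fold change of 1.3 and to 569 when both lines had to pass in the same direction. At that fold threshold 267 genes were called in *slexo1-hr6* and 170 in *slexo1-hr7*. Quality weights gave 1813 in *slexo1-hr7* and 101 between the lines. Leaving out 1 library gave 738 to 1492 in *slexo1*, 778 to 1470 in *slexo1-hr6*, 310 to 837 in *slexo1-hr7* and 20 to 49 between the lines; the cause of these changes was not tested. Similar totals do not mean the same genes. Library size alone gave 1691 calls, of which 1090 were among the 1431, and turned the share of calls higher from 44.0% to 72.8%. Of the 1431 genes, 1320 were also called with edgeR, 1311 with DESeq2 and 1174 without a filter. The replicate block on column numbers gave 1393, 1597, 911 and 54 calls. Correlations of same-numbered *slexo1* and wild-type libraries were between 0.02 and 0.08, and those of differently numbered ones between -0.09 and 0.05. Between the lines they were 0.01 to 0.22 for the same number and -0.17 to 0.06 for different numbers. Whether libraries of 1 number were handled together was not tested. Of 1028 values of named genes under the alternatives, 961 were counted as unchanged, 64 lost the call and 3 gained it. Among values of genes called in the main fit, 0 changed sign. For genes not called there, a change of sign was counted as unchanged. Many of the named genes had been chosen for large changes, which favours stable calls. Whether the 3 wild-type libraries come from 1 root clone is not stated in the sources used here, and each mutant line is 1 clone. Genes of the lowest level group (up to 4.29 CPM) had a median standard error of 0.39 (log2), which limits what can be detected there.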
